A study of Danio rerio with 14 samples.

Results

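Solute carriers are membrane transport proteins, taken here as the genes whose zebrafish symbols start with slc and a family number. They were followed as transcripts in the adult pineal gland. The array annotation gave 158 probe sets with such a symbol for 137 genes. The gene slc4a1a, an anion exchanger of red blood cells, was left out, the probe set of highest mean signal was kept for each other gene, and genes with a mean signal above 30 over the 14 arrays were retained. This gave 84 genes, out of 8793 genes named by probe sets with 1 symbol, and left 52 at or below the threshold. The retained genes nearest to the threshold were slc12a4 at 30.1, slc4a4b at 30.2 and slc38a6 at 30.7, and those nearest below it were slc26a1 at 29.4, slc25a16 at 28.9 and slc5a6b at 28.8. All 84 symbols were also current ones in the gene table used. The gene slc7a6os carries the prefix only because it lies opposite slc7a6, and its product is not a transporter.

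The study sampled the gland around the clock, since the pineal organ holds a clock and its transcripts may change over the day. Glands came from adult Tg(aanat2:EGFP)Y8 zebrafish of both sexes, 3 to 6 months old, in which regulatory sequence of aanat2, a gene of melatonin synthesis, drives EGFP in the gland so that it could be cut out under a fluorescence microscope; the whole dissected gland was used, with no sorting of cells. All fish were raised at 28 °C under 12 h of light and 12 h of darkness, and during the sampled day they either stayed in that cycle (LD, 7 arrays) or spent it in constant darkness (DD, 7 arrays). RNA on every array was pooled from 12 glands and amplified by 2 rounds of in vitro transcription. Collections were 4 h apart, at zeitgeber time (ZT) 2, 6, 10, 14, 18 and 22 h, ZT12 being the hour of lights-off; another collection in each condition was labelled ZT2b, whose meaning the labels do not give, and it was used as ZT2. Each collection was a single pool per condition, so the p-values measure how pools scatter around a fitted model, and no hybridisation batch is given, so batch and light condition cannot be told apart.

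Transport proteins of the solute carrier group move amino acids, sugars, organic acids, ions, metals and nucleotides across the plasma membrane and the membranes of organelles. Most work as exchangers or as cotransporters driven by ion gradients, and some, such as the amino acid exchangers of the slc7 family, reach the cell surface only with a partner chain. The fish pineal gland is made mostly of photoreceptor cells that hold a circadian clock and make melatonin at night. Photoreceptors take up glucose and exchange lactate and glutamate with neighbouring glia, as known from the vertebrate retina, and the melatonin pathway starts from tryptophan, a large neutral amino acid.

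The arrays gave median signals between 42.2 and 50.8 after the authors' scaling to a common trimmed mean. All 6 pineal photoreceptor markers found on the array lay above a mean signal of 30, with exorh between 9419 and 14440, and none of the 4 pigment cell markers on the array did. The DD array of ZT10 stood apart from the other 13. Its mean correlation with the other DD arrays was 0.938, against 0.963 to 0.965 for the others, and its poly-A spike-in controls averaged 518.8, against 47.3 to 114.9. The hybridisation spike-in controls averaged 552 to 733 on the LD arrays. On DD arrays they averaged 813 at ZT10 and 428 to 562 at the other collections. The part of this difference in the calls between LD and DD was not tested. The 84 genes fell into 8 families: 15 amino acid carriers, 2 of transmitters and vesicles, 13 of sugars and carboxylates, 9 ion exchangers and cotransporters, 18 mitochondrial carriers, 7 of nucleotide sugars and the Golgi, 13 of metals and heme, and 7 of phosphate, vitamins, lipids and organic ions. Families were assigned by the number in the symbol, and a family name need not give the substrate or place of each member. So slc7a6os and the partner chains slc3a2a and slc3a2b were counted with the amino acid carriers. The sulphate carrier slc13a1 was counted with sugars and carboxylates. Values below are signals, a linear brightness with no unit, or differences on the scale of log2(signal + 14.9), which understates changes of dim genes. Signals of different probe sets cannot be set against each other as levels of RNA. The sums of marker signals given below therefore follow their brighter probe sets and are not a level of a cell type.

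Among the 84 genes, 6 (7.14%) had a 24-h rhythm when both light conditions were fitted together with a wave of that period. They were 2 amino acid carriers (slc38a4 and slc43a2a), 2 carriers of carboxylates (slc13a5a and slc16a9b) and 2 mitochondrial carriers (slc25a33 and slc25a1a). Of all 9301 probe sets tested, 4.86% passed the same test, which was limma's moderated F-test with Benjamini-Hochberg adjustment over all probe sets and a threshold of 0.05. The fitted distance from trough to peak had a median of 0.39 over the 84 genes and 0.34 over all probe sets. No rhythm passed among the metal, ion, Golgi, transmitter or phosphate families.

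The widest swing was that of slc38a4, a sodium-coupled carrier of neutral amino acids that in mammals is known mainly from liver. In LD its signal was 267 at ZT2, 186.8 at ZT6, 32.1 at ZT10, 50.7 at ZT14, 79.9 at ZT18, 613.8 at ZT22 and 371.6 at ZT2b. In DD it was 206.8, 156.4, 102.9, 90.1, 68.2, 259.3 and 279.9 in the same order. Both series were lowest between ZT10 and ZT18 and high from ZT22 into the morning, and the lowest LD array lay 19.1-fold under the highest, against 4.104-fold in DD. The fitted swing over both conditions was 2.41 ± 0.36 (SE, n = 14 arrays, log2 scale) with a peak at ZT 0.68 h (limma adjusted p = 0.00219). Fitted by condition, it was 3.33 ± 0.43 in LD (limma adjusted p = 0.00125) and 1.59 ± 0.42 in DD (limma adjusted p = 0.229).

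The mitochondrial carrier slc25a33, which brings pyrimidine nucleotides into the organelle, had a similar time of peak. Its LD signals were 490.2, 464.5, 180.2, 258, 318.2, 819.8 and 610.3 at ZT2, ZT6, ZT10, ZT14, ZT18, ZT22 and ZT2b. Those in DD were 645.4, 393.1, 177.4, 251, 323.8, 375.8 and 863.5. Both conditions were lowest at ZT10; LD was highest at ZT22 and DD at ZT2b. The swing over both was 1.67 ± 0.24 with a peak at ZT 0.41 h (limma adjusted p = 0.0015), and the swings by condition were close, 1.703 ± 0.36 in LD (limma adjusted p = 0.0314) and 1.66 ± 0.35 in DD (limma adjusted p = 0.0893).

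Citrate carriers of the plasma membrane and of mitochondria peaked at opposite ends of the cycle. The plasma membrane carrier slc13a5a, which takes up citrate with sodium, had LD signals of 65.6, 45.2, 22.6, 21.8, 27.4, 74.3 and 74.3 in the same order of collections. Its DD signals were 42.7, 39.2, 37.9, 23.5, 35.9, 55.9 and 53.1. Both were lowest at ZT14 and highest between ZT22 and ZT2, with LD arrays from ZT10 to ZT18 lying close to the pseudocount. The swing was 1.03 ± 0.19 with a peak at ZT 0.83 h (limma adjusted p = 0.0111).

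The mitochondrial citrate carrier slc25a1a, which exports citrate to the cytosol, ran from 215.8 at ZT2 through 338.1, 372.3, 638.3 and 567.2 to 377.2 at ZT22 in LD, with 232.7 at ZT2b. In DD it was 324.6, 448.7, 450.5, 518.2, 550.8 and 412.2 from ZT2 to ZT22, and 285.3 at ZT2b. In both conditions the arrays of ZT14 and ZT18 were the highest and those of ZT2 and ZT2b the lowest. Its swing of 1.03 ± 0.18 peaked at ZT 14.97 h (limma adjusted p = 0.00579), and was 1.35 ± 0.24 in LD (limma adjusted p = 0.0107) and 0.72 ± 0.23 in DD (limma adjusted p = 0.371). The difference in time of peak between slc13a5a and slc25a1a was not tested.

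The other carboxylate gene, slc16a9b, belongs to the monocarboxylate carrier family. It was highest at night in LD, with 119.7, 165.3 and 147.7 at ZT14, ZT18 and ZT22, against 82.4, 55, 74.8 and 83.8 at ZT2, ZT6, ZT10 and ZT2b. In DD its highest array was ZT22 at 136.7 and its lowest ZT10 at 53.9. The swing was 1.08 ± 0.20 with a peak at ZT 19.6 h (limma adjusted p = 0.0111). Its paralog slc16a9a did not pass, with a swing of 0.69 ± 0.26 and a peak at ZT 19.2 h (limma adjusted p = 0.287). The paralog was picked for this comparison after its values were seen.

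The night-high amino acid carrier was slc43a2a, a carrier of large neutral amino acids known as LAT4 in mammals. Its LD signals were 54.2 at ZT2, 39.5 at ZT6 and 56.9 at ZT2b, and rose to 127.8, 150.8, 193.4 and 194.9 from ZT10 to ZT22. In DD they were 136.1 and 128.9 at ZT2 and ZT2b, 200.8 and 221 at ZT6 and ZT10, and 251.3, 222.9 and 183.3 from ZT14 to ZT22. The 3 LD arrays of ZT2, ZT2b and ZT6 lay below every other array of the gene. The swing was 1.28 ± 0.27 with a peak at ZT 16.2 h (limma adjusted p = 0.0251), 1.99 ± 0.31 in LD (limma adjusted p = 0.00512) and 0.78 ± 0.29 in DD (limma adjusted p = 0.463). The other paralog, slc43a2b, had a swing of 0.12 ± 0.22 (limma adjusted p = 0.933) and is named here after its values were seen.

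**Figure D1:**
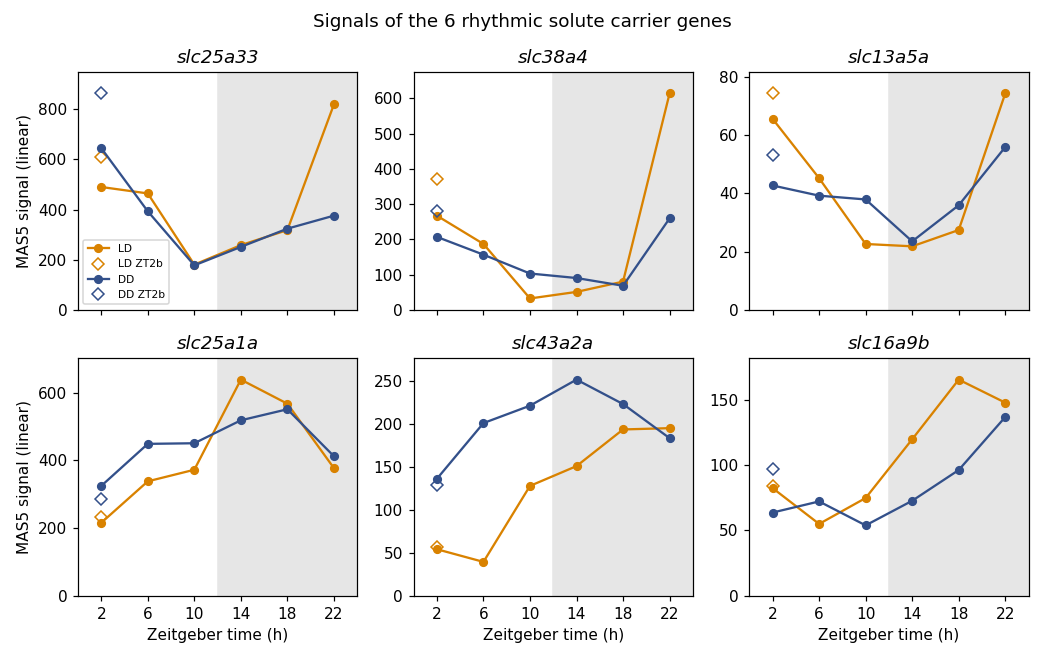
Signal of the 6 rhythmic solute carrier genes against zeitgeber time in hours, LD in orange and DD in blue, each point a pool of 12 glands, open diamonds the ZT2b pools and grey the hours from ZT12 to ZT24. The genes slc38a4, slc25a33 and slc13a5a were low in the middle of the cycle, slc25a1a was lowest at ZT2 and ZT2b, and the lowest arrays of slc16a9b were ZT6 in LD and ZT10 in DD. The LD arrays of slc43a2a at ZT2, ZT2b and ZT6 lay below all its others.

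Of these 6 rhythms, those of slc25a33 and slc38a4 kept an adjusted p under 0.05 in all 23 alternative settings. Without both ZT2b arrays the calls of both citrate carriers, slc25a1a (limma adjusted p = 0.0583) and slc13a5a (0.0676), were lost. That of slc43a2a was lost there as well (0.126). The alternative F-test on 6 times did not call slc13a5a (limma adjusted p = 0.1565), slc16a9b (0.1797) or slc43a2a (0.1942). Leaving out a single array ended the call of slc43a2a for LD ZT2 (adjusted p = 0.0603), LD ZT14 (0.0612), LD ZT18 (0.0909), LD ZT2b (0.0632) and DD ZT2b (0.0513), and that of slc16a9b for LD ZT18 (0.0505), all by limma.

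A model of all 14 arrays then gave each condition its own wave, with 1 shared estimate of the spread. In its test of the LD wave the same 6 genes passed (7.14%, against 4.1% of all probe sets), with slc16a9b at 1.37 ± 0.25 and slc13a5a at 1.43 ± 0.25. Of these, slc38a4 and slc43a2a kept their call with each array left out. The others lost it without LD arrays: slc25a1a without ZT2, ZT14 or ZT2b (limma adjusted p from 0.0544 to 0.113), slc25a33 without ZT10, ZT14, ZT22 or ZT2b (0.0934 to 0.169), slc13a5a without ZT14 or ZT2b (0.0541 to 0.0558) and slc16a9b without ZT6, ZT18 or ZT22 (0.0532 to 0.0915). In DD no solute carrier gene passed limma's test, against 0.645% of all probe sets. An unadjusted p under 0.05 was reached by 8 genes (9.52%), against 10.9% of all probe sets. The smallest p in DD was that of slc25a48, a mitochondrial carrier. Its signals in DD were 15.9, 57.6, 59.5, 99.3, 73.1, 24.1 and 30 at ZT2, ZT6, ZT10, ZT14, ZT18, ZT22 and ZT2b, while all 7 LD arrays lay between 12.9 and 26.3, close to the pseudocount. In DD the arrays of ZT6 to ZT18 were the high ones. The gene passed the signal threshold of 30 only through its DD arrays, with means of 22.4 in LD and 51.4 in DD. That its DD arrays lay higher is therefore partly fixed by the rule for members. The DD swing of 1.56 ± 0.31 peaked at ZT 13.1 h (limma adjusted p = 0.0683); it passed without the DD array of ZT6 (0.0343) or of ZT10 (0.0425).

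Rhythms in LD and DD were compared directly with an interaction term. No solute carrier gene and no probe set of the 9301 passed (0% of all). By unadjusted p under 0.05 there were 8 solute carrier genes (9.52%) and 661 probe sets (7.11% of all). The smallest p was that of slc25a48, retained only through its DD signals, with a difference of 1.90 ± 0.43 on the log2 scale (limma adjusted p = 0.551). It was followed by slc20a1b, a sodium-phosphate cotransporter, with 1.41 ± 0.38 (limma adjusted p = 0.571). The larger swings of slc38a4, slc43a2a, slc25a1a and slc13a5a in LD were therefore not shown to differ from those in DD.

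**Figure D2:**
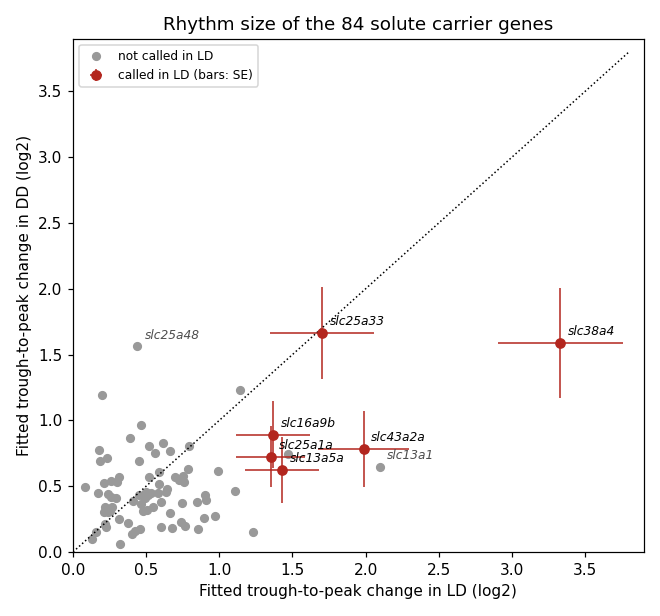
Fitted trough-to-peak distance in DD (vertical axis) against that in LD (horizontal axis), both in log2(signal + 14.9), for the 84 solute carrier genes. The 6 genes called rhythmic in LD, the same 6 as over both conditions, are in red with standard errors. They were coloured by the test of the LD wave, whose size is on the horizontal axis. The widest swing in LD was that of slc38a4 at 3.33, against 1.59 in DD.

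More solute carrier genes were called for light condition than for time of day. Between LD and DD, 19 of the 84 genes differed (22.6%), 8 higher and 11 lower in LD, in limma's contrast with time of collection as a block. Of all 9301 probe sets 20.6% were called, 10% higher and 10.6% lower, so the share among solute carriers was near that background. After centring every array on its median the split was 12 higher and 10 lower, and after quantile normalisation it was 10 and 10. Without both ZT2b arrays 10 genes were called, 6 higher and 4 lower, and without either array of ZT14 the count was 11. The share of all probe sets called was not taken for these alternative settings. The median difference of the 84 genes was -0.06 and that of all probe sets -0.01, with members between -1.56 and 1.005.

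Genes of the amino acid family, slc7a6os included, made up 9 of the 19. Of the family's 15 genes 6 were lower and 3 higher in LD, against 10.6% and 10% of all probe sets. Whether the family differed from other genes was not tested. The family's median difference was -0.38. Under median centring and under quantile normalisation the counts were 5 lower and 3 higher, and without both ZT2b arrays they were 2 lower and 3 higher. Shares of all probe sets were not taken for these settings. The genes lower in LD were slc7a8a, slc7a7, slc43a2a, slc38a2, slc38a5b and slc1a4, and those higher were the glutamate carriers slc1a2b and slc1a3a and slc7a6os, which is no transporter. The other 6 genes of the family (slc38a4, slc38a6, slc43a2b, slc7a3a, slc3a2a and slc3a2b) did not pass. Calls in the other families were 3 of 13 for metals, 2 of 13 for sugars and carboxylates, 2 of 9 for ion carriers, and 1 each for mitochondrial, Golgi and phosphate carriers. In a gland with several cell types, fewer cells of a type and less RNA per cell cannot be told apart. Markers of cell types differed between LD and DD as well, beside the 10.6% of all probe sets called lower and 10% called higher in LD. Of the 6 pineal photoreceptor markers 1 was called, higher in LD. The photoreceptor marker otx5 was at 155.6 to 289.9 in LD and 79.4 to 125.7 in DD. Red cell markers were lower in LD in 4 of 5 tested, with sums of 7154 to 12146 in LD and 9184 to 18297 in DD. Among these markers hbba2 was at 96.8 to 194.9 in LD and 478.8 to 2565 in DD. The habenula marker kctd12.1, the only 1 of 4 on the array, was at 103 to 138 in LD and 215 to 488 in DD. Its groups did not overlap (2.33% of all probe sets in this direction), with a difference of -1.36 ± 0.14 (limma adjusted p = 0.000146). Neuron markers were higher in 3 of 7 tested (snap25a, snap25b and sncb), with sums of 8630 to 10180 and 6922 to 8944. None of these markers was listed at 0, and their part in the 19 calls was not tested.

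**Figure D3:**
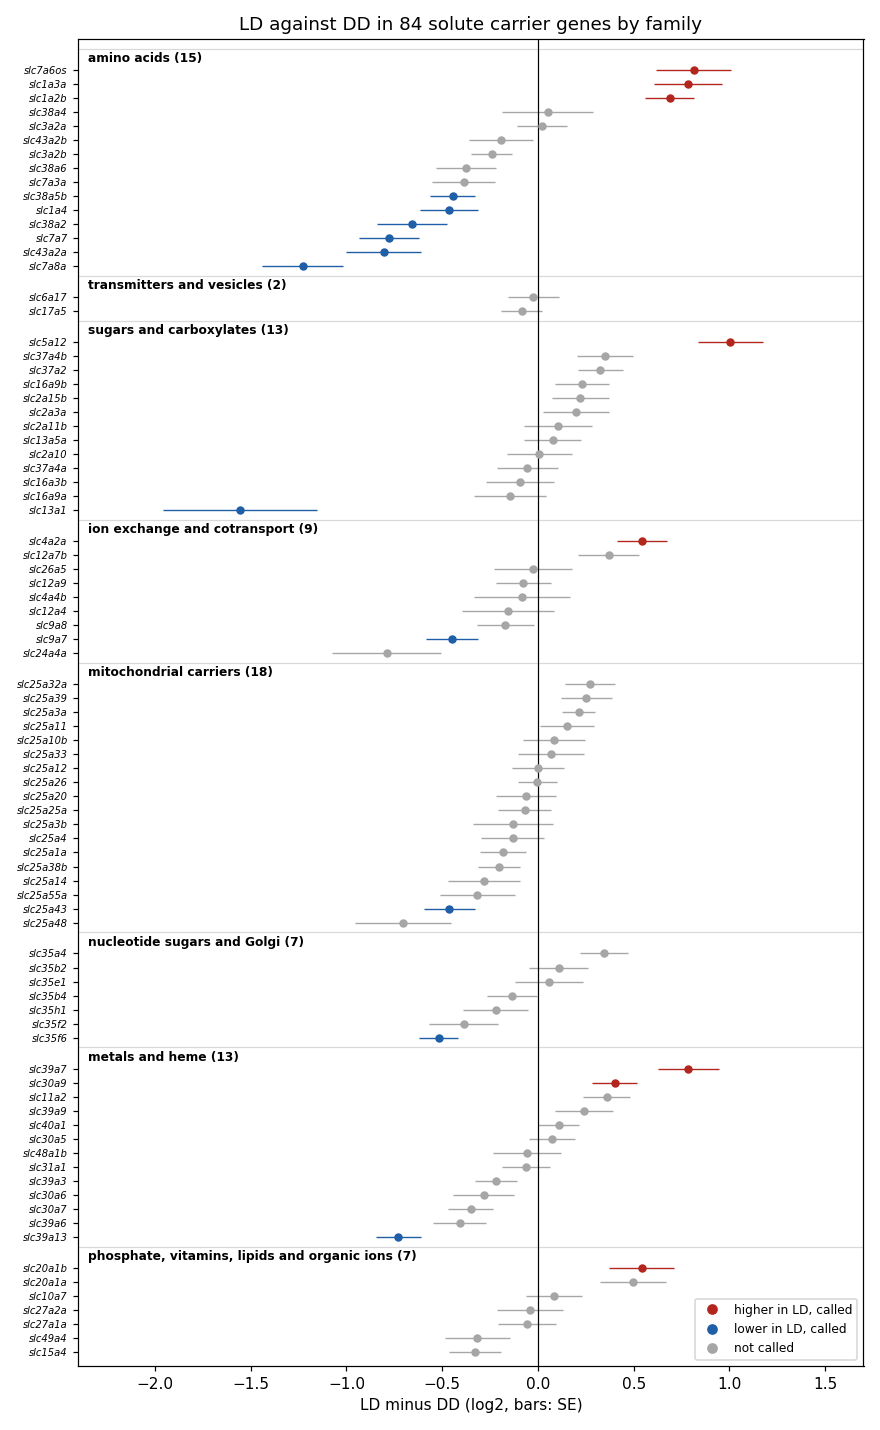
Difference of LD minus DD in log2(signal + 14.9), with its standard error, for each of the 84 solute carrier genes grouped by family; red genes were higher and blue genes lower in LD by the adjusted test, and grey genes were not called. Of the 15 genes in the amino acid family, slc7a6os included, 6 were blue and 3 red, and 1 of 18 mitochondrial carriers was coloured. Of all probe sets 10.6% were called lower and 10% higher in LD.

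The exchangers slc7a8a (LAT2) and slc7a7 (y+LAT1) both work with the heavy chain slc3a2 in mammals, and slc7a7 is needed by the precursors of microglia in zebrafish. The LD arrays of slc7a8a ran from 63.6 through a median of 129.6 to 198.8, and the DD arrays from 174.5 through 317.2 to 408.3. Their means were 124 ± 46.0 and 304 ± 77.9 (SD over the 7 arrays of LD and of DD). Only the LD and DD arrays of ZT2 overlapped, with LD at 198.8 and DD at 174.5. The LD mean lay 2.45-fold under that of DD, a difference of -1.23 ± 0.21 on the log2 scale (SE, limma adjusted p = 0.00233). A second probe set of slc7a8a moved the same way without passing, by -0.60 ± 0.29 (limma adjusted p = 0.158).

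For slc7a7 the 7 LD arrays lay between 16 and 43.2, with a median of 25.2, and the 7 DD arrays between 51.1 and 85.4, with a median of 57.8. The groups did not overlap, which was so for 2.33% of all probe sets in this direction. The difference was -0.78 ± 0.16 (limma adjusted p = 0.0049). Of the 4 leukocyte markers tested, 2 (ptprc and cd74a) were also lower in LD, while lyz and coro1a did not pass. The 6 on the array summed to 1723 to 3138 in LD and 2302 to 5142 in DD, with none listed at 0. The sum was mostly cd74a, with a mean signal of 2765 against 209.9 or less for the others. The part of these markers in the result was not tested.

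Neither heavy chain passed the test. The means of slc3a2a were 990 ± 221 in LD and 979 ± 235 in DD, a difference of 0.02 ± 0.13 (limma adjusted p = 0.931). Those of slc3a2b were 3209 ± 626 and 3743 ± 220, a difference of -0.24 ± 0.11 (limma adjusted p = 0.125). Over time, slc3a2a had a swing of 0.71 ± 0.18 that did not pass (limma adjusted p = 0.0679).

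Among the sodium-coupled carriers of neutral amino acids, slc38a2 (SNAT2), slc38a5b (of the glutamine carrier SNAT5) and slc1a4 (ASCT1) were lower in LD. The LD arrays of slc38a5b ran from 57.6 through 80.6 to 107.5 and the DD arrays from 91.4 through 104.8 to 148.5, with LD lower at all 7 collections. Those of slc38a2 ran from 55.7 through 85 to 143.2 in LD and from 92.2 through 148.9 to 220.7 in DD. The LD arrays of slc1a4 lay at 22.8 to 45.5 and those in DD at 37.7 to 66.9. The groups of all 3 genes overlapped, and the differences were -0.45 ± 0.12 for slc38a5b (limma adjusted p = 0.0181), -0.66 ± 0.18 for slc38a2 (0.0241) and -0.46 ± 0.15 for slc1a4 (0.0464). Each of these 3 calls was lost without single arrays: slc38a5b without either array of ZT14 (adjusted p from 0.0522 to 0.0526), slc38a2 without either array of ZT6, ZT14, ZT18 or ZT22 or LD ZT2b (0.0518 to 0.0682), and slc1a4 with any of 12 arrays left out (0.0603 to 0.125). A relative of slc38a2, slc38a4, changed with time, while its difference between light conditions did not pass (0.05 ± 0.24, limma adjusted p = 0.903).

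The glutamate carriers slc1a2b and slc1a3a, whose mammalian counterparts clear glutamate into glia, were both higher in LD. The LD arrays of slc1a2b ran from 2279.6 through 3103 to 3879.4 and the DD arrays from 1107.9 through 1893 to 2936.3. LD was higher at all 7 collections, although the groups overlapped, because DD ZT10 reached 2936.3 and LD ZT14 was at 2279.6. The difference was 0.69 ± 0.13 (limma adjusted p = 0.00364).

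Signals of slc1a3a were 607.1 at LD ZT2 and 801 to 932.5 on the other 6 LD arrays, against 302.1 to 658.4 in DD with a median of 511.5. LD ZT2 was the only LD array inside the DD range. The difference was 0.78 ± 0.18 (limma adjusted p = 0.00868), with LD higher at 6 of 7 collections. Of the 5 glial markers tested, 2 were lower in LD (s100b and glula) and 3 did not pass, among them gfap with means of 106 ± 27.7 in LD and 82.2 ± 28.5 in DD (0.34 ± 0.14, limma adjusted p = 0.0925). The sum of the 5 was 3991 to 6366 in LD and 6334 to 8153 in DD, with none listed at 0. Their part in the result was not tested.

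The highest call of LD over DD was that of slc5a12, a sodium-coupled carrier of lactate and other monocarboxylates. Its LD arrays ran from 205.1 through 285.4 to 456.1 and its DD arrays from 97.6 through 139.3 to 190.7. No LD array fell within the DD range, which was so for 2.13% of all probe sets in this direction. The means differed 2.12-fold, by 1.005 ± 0.17 on the log2 scale (limma adjusted p = 0.00214).

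The sodium-sulphate carrier slc13a1 went the opposite way and had the largest difference of the 84. One LD value, that of ZT6, is empty in the deposited table, so its fits rest on 13 arrays. In LD it was 789.1 at ZT2, 673.6 at ZT10, 263.3, 205.8 and 160.1 from ZT14 to ZT22, and 168.5 at ZT2b. In DD it was 399 at ZT2, 1122.1 at ZT2b and 964.5 to 1198.6 on the other 5 arrays. The 2 LD pools used as ZT2 thus differed 4.68-fold, and so did the DD pools by 2.81-fold, in the opposite direction. The difference between conditions was -1.56 ± 0.40 (limma adjusted p = 0.0184), and it lost the threshold without either array of ZT14, ZT18 or ZT22 (0.0518 to 0.0616). The call was also lost without both ZT2b arrays (limma adjusted p = 0.07945) and with a robust variance prior (0.0567).

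Zinc carriers were called in both directions. The gene slc39a13, of the Golgi zinc exporter to the cytosol ZIP13, was lower in LD, where its 7 arrays lay at 26.8 to 40.5 with a median of 36, against 56.6 to 85.2 with a median of 68.3 in DD. The groups did not overlap (2.33% of all probe sets in this direction), and the difference was -0.73 ± 0.12 (limma adjusted p = 0.00176). The endoplasmic reticulum carrier slc39a7 was higher, at 533.4 to 1206.1 with a median of 805.6 in LD and 328.4 to 527.2 with a median of 485.7 in DD. These groups did not overlap either (2.13% of all probe sets in this direction), and the difference was 0.78 ± 0.16 (limma adjusted p = 0.00515).

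A second probe set of slc39a7 differed by 0.41 in the same direction without passing (limma adjusted p = 0.105). The mitochondrial zinc carrier slc30a9 was higher in LD, at 229.6 to 370.3 against 171.5 to 249.3 with an overlap, by 0.40 ± 0.12 (limma adjusted p = 0.0278). Its call was lost without either array of ZT6, ZT14, ZT18 or ZT22 or LD ZT2b (0.0523 to 0.0721). The plasma membrane zinc importer slc39a6 did not pass, with a difference of -0.41 ± 0.14 (limma adjusted p = 0.0532). Its LD arrays (132.5 to 202.7) lay just below all DD arrays (204.8 to 329.9), as for 2.33% of all probe sets in this direction. It is named after its values were seen. Ferroportin, slc40a1, the cellular iron exporter, was at 164 ± 20.8 in LD and 151 ± 23.3 in DD, a difference of 0.11 ± 0.11 (limma adjusted p = 0.504).

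Among ion carriers, the chloride-bicarbonate exchanger slc4a2a was higher in LD, with arrays from 725.2 through 848.9 to 1339.4 against 550 through 603.7 to 715.8. The groups did not overlap (2.13% of all probe sets in this direction), and the difference was 0.55 ± 0.13 (limma adjusted p = 0.0116). The other probe sets of slc4a2a differed by 0.57 and 0.41 without passing (limma adjusted p = 0.0917 and 0.111). The sodium-proton exchanger slc9a7 of the trans-Golgi network was lower in LD, with arrays at 269.6 to 482.1 against 371.6 to 625.9. These groups overlapped, although LD was lower at all 7 collections, and the difference of -0.45 ± 0.14 (limma adjusted p = 0.0332) was lost with any of 10 single arrays left out (0.0531 to 0.0793). The potassium-chloride cotransporter slc12a7b had means of 1235 ± 357 and 937 ± 200.7, a difference of 0.37 ± 0.16 (limma adjusted p = 0.114). The sodium-bicarbonate cotransporter slc4a4b, just inside the signal threshold, differed by -0.08 ± 0.25 (limma adjusted p = 0.842).

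In the remaining families, slc20a1b, a phosphate carrier, was higher in LD, with arrays at 369.1 to 795.7 against 221.8 to 390.5. The groups overlapped between 369.1 and 390.5, and the difference was 0.54 ± 0.17 (limma adjusted p = 0.0394), lost without either array of ZT6, ZT10, ZT14 or ZT18 (0.0631 to 0.112). Its paralog slc20a1a differed by 0.49 ± 0.17 without passing (limma adjusted p = 0.0566). The gene slc35f6 was lower in LD, at 220.5 to 374.5 against 354.9 to 550.5, by -0.52 ± 0.10 (limma adjusted p = 0.00475).

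The mitochondrial carrier slc25a43 was lower in LD, at 43.4 to 111.9 against 70.9 to 168.5, by -0.46 ± 0.13 (limma adjusted p = 0.0276), and lost its call without either array of ZT14, ZT18 or ZT22 or LD ZT2b (0.0613 to 0.0791). The other 17 mitochondrial carriers did not pass. Among them, the phosphate carriers slc25a3a and slc25a3b, which feed ATP synthesis, differed by 0.21 ± 0.08 and -0.13 ± 0.21 (limma adjusted p = 0.0925 and 0.686), and the ADP/ATP carrier slc25a4 by -0.13 ± 0.17 (limma adjusted p = 0.607). The gene slc7a6os had 904 to 1044.5 in LD and 599.8 to 738.5 on 6 DD arrays, with 172.1 on DD ZT10. Its groups did not overlap (2.13% of all probe sets in this direction), and it differed by 0.81 ± 0.20 (limma adjusted p = 0.012).

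**Figure D4:**
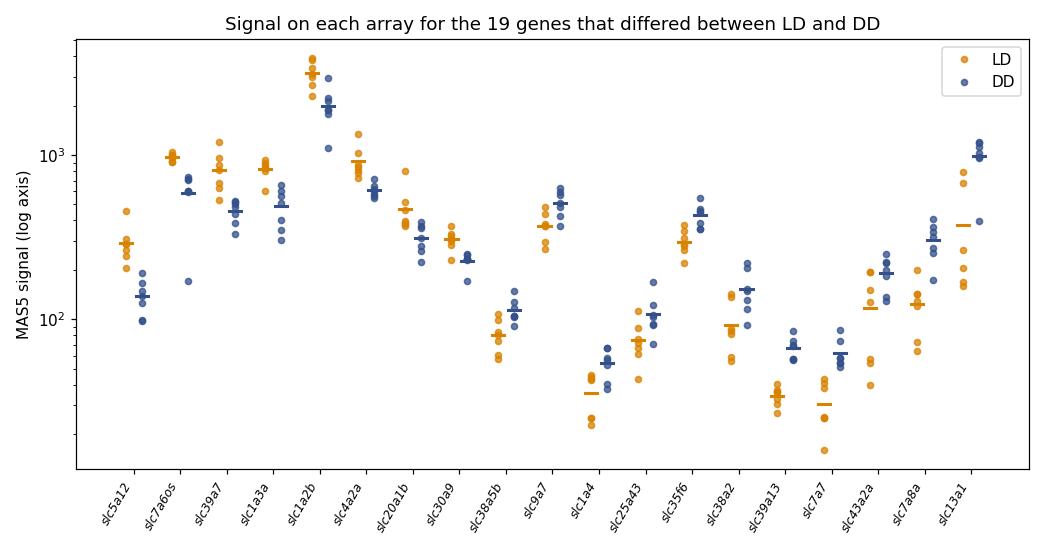
Signal on a log axis of each LD (orange) and DD (blue) array for the 19 solute carrier genes that differed between conditions, with lines at the means. The groups did not overlap for slc5a12, slc39a7, slc4a2a and slc7a6os, all higher in LD, as for 2.13% of all probe sets. They did not overlap for slc39a13 and slc7a7, both lower in LD, as for 2.33% of all probe sets. The genes shown were chosen by the test of this same difference.

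The difference between LD and DD was then taken apart by time of collection. Only the collections from ZT2 to ZT10, with ZT2b used as ZT2, fell in the hours of light in LD. By day (ZT2, ZT2b, ZT6 and ZT10), 10 of the 84 genes differed (11.9%, against 9.21% of all probe sets), 3 higher and 7 lower in LD (4.96% and 4.26% of all probe sets). By night (ZT14, ZT18 and ZT22), when both conditions were dark, 6 differed (7.14%, against 2.94%), 3 higher and 3 lower (1.37% and 1.57% of all). The genes slc5a12, slc7a8a and slc39a13 were called at both times, with differences of 0.87 ± 0.23 and 1.19 ± 0.26, -1.08 ± 0.28 and -1.42 ± 0.33, and -0.68 ± 0.16 and -0.79 ± 0.18 by day and by night. The second probe set of slc7a8a passed at neither time, with -0.66 by day and -0.53 by night (limma adjusted p = 0.314 and 0.567). The night difference of slc5a12 was 0.76 without either array of ZT22 (limma adjusted p = 0.245 to 0.246). None of the day calls was kept without both ZT2b arrays, and their number was 1 without LD ZT2b. No night call was kept with any array of ZT14, ZT18 or ZT22 left out, the adjusted p of slc4a2a then reaching 0.267. Shares of all probe sets were not taken with arrays left out.

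Genes called by day and not by night included slc43a2a, slc3a2b and slc16a3b. The day means of slc43a2a were 69.6 ± 39.55 in LD and 172 ± 46.1 in DD (SD, 4 arrays per condition), and the night means 180 ± 25.04 and 219 ± 34.2 (3 arrays per condition). The day difference was -1.21 ± 0.20 (limma adjusted p = 0.00563) and the night difference -0.26 ± 0.23 (0.569). This day call survived the loss of every single array, and without both ZT2b arrays its adjusted p was 0.0510.

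The heavy chain slc3a2b had day means of 2758 ± 232 in LD and 3722 ± 250 in DD, and night means of 3809 ± 386 and 3771 ± 223. The day difference was -0.43 ± 0.12 (limma adjusted p = 0.0453), and its call was lost with any of 12 single arrays left out. The lactate exporter slc16a3b, MCT4 of mammals, had day means of 371 ± 72.4 and 545 ± 129 and night means of 472 ± 111 and 329 ± 50.2. It was lower in LD by day, by -0.53 ± 0.15 (limma adjusted p = 0.0473, lost by leaving out each array singly), while the night difference was 0.48 ± 0.17 (0.144). Its mammalian partner chain basigin, bsg, which is no solute carrier, was lower in LD over all times by -0.30 ± 0.08 (limma adjusted p = 0.0189).

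The remaining day calls were slc1a2b (0.70 ± 0.18) and slc7a6os (0.94 ± 0.26, and 0.49 without either array of ZT10), higher in LD, and slc7a7 (-0.90 ± 0.21) and slc35f6 (-0.54 ± 0.14), lower. The remaining night calls were slc39a7 (1.102 ± 0.22), slc4a2a (0.79 ± 0.18) and slc13a1 (-2.38 ± 0.48). The probe sets of slc4a2a disagreed here: by night the others differed by 0.36 and -0.04 (limma adjusted p = 0.616 and 0.938), and by day the latter passed at 0.76 (0.0311) while the retained probe set did not (0.36, 0.16). For slc13a1 the 3 LD night arrays were at 160.1 to 263.3 and the 3 DD night arrays at 1033.1 to 1198.6. The day difference of slc13a1 was -0.73 ± 0.48 over 3 LD and 4 DD arrays (limma adjusted p = 0.357), and its night call was lost with any array of the night left out (0.0989 to 0.197). For slc39a7 the night means were 1013 ± 173 in LD and 463 ± 66.8 in DD, and the day means 660 ± 113 and 450 ± 89.5. By night the second probe set of slc39a7 differed by 0.50 without passing (limma adjusted p = 0.317).

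Whether the difference between LD and DD changed between day and night was tested by an interaction contrast. No solute carrier gene and no probe set passed (0% of all). An unadjusted p under 0.05 was reached by 7 genes (8.33%) and 527 probe sets (5.67% of all). The smallest p values were those of slc16a3b, with day minus night -1.01 ± 0.23 (limma adjusted p = 0.305), and slc43a2a, with -0.95 ± 0.31 (limma adjusted p = 0.716). A call by day and none by night therefore does not show that the day and night differences were unlike.

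**Figure D5:**
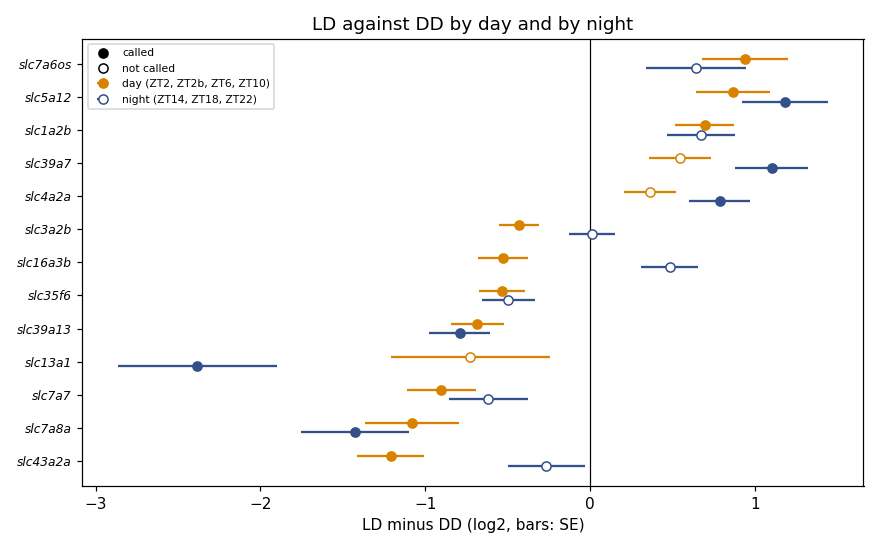
Difference of LD minus DD in log2(signal + 14.9), with standard errors, by day and by night for the 13 solute carrier genes called at either time; filled points passed the adjusted test. The genes slc5a12, slc7a8a and slc39a13 are filled at both times, and slc16a3b lies on opposite sides of 0.

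Transport genes outside the solute carrier symbols (ABC transporters, aquaporins and others) gave 26 tested genes. Rhythms over both conditions passed for 4 of the 26, against 4.86% of all probe sets. Among these 4 were the water and glycerol channel aqp9b with a swing of 1.68 ± 0.24 and a peak at ZT 17.3 h, and the water channel aqp1a.1 with 1.18 ± 0.16 and a peak at ZT 1.41 h. In DD the ABC transporter abcc3 passed (1.42 ± 0.24, limma adjusted p = 0.0322), while no solute carrier did; the difference between the groups of genes was not tested. Between LD and DD 7 of the 26 differed, 3 higher and 4 lower in LD. Of all probe sets 20.6% differed, 10% higher and 10.6% lower.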

How the data were processed

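Affymetrix arrays of 14 pooled pineal samples were used, 7 in LD and 7 in DD. The deposited values are linear MAS5 signal intensities made by the authors with GCOS and MAS5, per the submitters' processing notes. The values show a common scaling: their mean trimmed by 2% at each end was 150.04 to 150.05 on every array. Probe sets were named from the platform annotation given with the series. No coordinates are given, since no genome build is named.

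Controls (115 of 15617 probe sets) and probe sets with a mean of 29.179 or less (the 40th percentile) were left out, which kept 9301. All 84 solute carrier genes passed this filter. Signals were taken as log2(signal + 14.9), the pseudocount being the 25th percentile of all values. Linear models came from limma (version 3.58.1, under R 4.3.3), with moderated variances and a mean-variance trend. Rhythms used cosine and sine terms of 24 h, and light contrasts used time of collection as a block. P-values were adjusted by Benjamini-Hochberg over the 9301 probe sets, threshold 0.05. The script was tested on simulated data. The empty value of slc13a1 was treated as missing. The number of arrays limits the precision. Replicate numbers stand for times of collection, so the block on time is the pairing.

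Genes were named if called in any of 8 tests, if among the 10 of highest mean signal, if of smallest p where a test called none, or if on a list of photoreceptor, glial and pigment cell carriers. Members and lists were chosen with earlier results of these data known. Alternatives were other pseudocounts, no filter, median centring, quantile normalisation, 1 probe set per gene, a robust variance prior, no ZT2b arrays, an F-test over the 6 times, no block, and each array left out.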

Additional observations from a re-analysis of the deposited data

Results flagged for a closer look

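Among the 34 named genes, 7 of 68 groups (7 arrays each, or 6 for slc13a1 in LD) held a value farther from the rest than Dixon's 95% limit allows, where chance gives about 1 in 20. On the DD array of ZT10, slc7a6os was at 172.1 (the other 6 DD arrays 599.8 to 738.5), slc30a9 at 171.5 (229.5 to 249.3), slc25a3a at 2709.5 (3855.1 to 4336) and slc25a3b at 618.8 (1498.7 to 2284.4). All 4 of these were the lowest of their group, on the array with the high poly-A spike-in signal. The remaining 3 lay on other arrays. At DD ZT2, slc13a1 was at 399 (964.5 to 1198.6). At LD ZT2, slc1a3a was at 607.1 (801 to 932.5). At LD ZT14, slc20a1b was at 795.7 (369.1 to 514.2).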

How the results depend on the processing

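Solute carrier genes called rhythmic over both conditions numbered 6, and 3 without both ZT2b arrays, 3 by an F-test over the 6 times, and 4 to 10 with a single array left out (10 without DD ZT10). In LD there were 6, and 2 without both ZT2b arrays and 3 to 8 with an array left out (3 without LD ZT14 or LD ZT2b). In DD there were 0, and 1 with a pseudocount of 29.8 and 0 to 1 with an array left out. Between LD and DD the 19 calls became 10 without both ZT2b arrays and 11 to 21 with an array left out, 11 being the count without either array of ZT14. Without time of collection as a block there were 18, of which 17 were among the 19; slc43a2a (adjusted p = 0.0615) and slc25a43 (0.0714) were lost and slc39a6 was gained. By day the 10 calls became 5 with no filter, 0 without both ZT2b arrays and 1 to 8 with an array left out. By night the 6 became 3 with no filter, 1 without both ZT2b arrays and 0 to 9 with an array left out (0 without any array of ZT14, ZT18 or ZT22; 9 without DD ZT10). Both interaction tests gave 0 throughout. No named result changed direction. Calls kept in every alternative were 2 of 6 rhythms over both conditions, 2 of 6 in LD, 10 of 19 between conditions, 0 of 10 by day and 0 of 6 by night. The share of all probe sets called was taken for the main setting only. Whether these shifts are particular to solute carriers is therefore not shown, and their cause was not tested. Dim genes such as slc13a5a, slc25a48 and slc7a7 lie near the pseudocount in LD, which limits their folds.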
